A study of Mus musculus with 36 samples.

Results

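Secreted bone morphogenetic proteins (BMPs) and the extracellular proteins that hold them off their receptors were followed through neurobasal differentiation of mouse ESCs. The genes were the ligands *Bmp2*, *Bmp4*, *Bmp5*, *Bmp6* and *Bmp7* and the antagonists *Chrd*, *Nog*, *Fst* and *Grem1*, each matched by its symbol to 1 gene of the deposited tables. They make 9 of the 54281 genes in the files, and all 9 were among the 21601 genes left by the filter on low counts. RNA was measured in bulk in 36 libraries, on day 0 (ESCs) and on days 1 to 5 of a culture in defined medium with bFGF at the start, whose aimed product is the anterior neural progenitor cell (antNPC). Every line has a (B6 × 129S6)F1 background. *Tet1* KO cells (lines KO1 and KO15, Tet1 tm1Koh allele) and WT cells (lines WT7 and WT34) each gave 2 libraries on days 0, 1, 2 and 4, 4 on day 3 and 3 on day 5. MUT cells (clones CM59 and CM69, carrying a *Tet1* whose catalytic centre is inactivated, edited from the WT7 line, each a single clone) gave 4 libraries, 2 each on days 3 and 5. Their control was WT70, also labelled WT, with 1 library on each of these days. The data came in 3 tables, called here the first table (KO and WT on days 0, 3 and 5), the time-course table (KO and WT on days 1 to 5, on day 5 only KO1 and WT7) and the third table (MUT and WT70). Libraries of 1 line on 1 day in different tables were counted separately, so n counts libraries and not lines, and p-values measure the spread between these libraries.

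BMPs are dimeric ligands of the TGF-β superfamily that bind paired type I and type II receptors, which phosphorylate SMAD1, SMAD5 and SMAD9. These enter the nucleus with SMAD4 and switch on target genes such as the *Id* genes, *Msx1*, *Msx2* and the feedback inhibitors *Smad6*, *Smad7* and *Bambi*. In the early embryo BMP signals favour epidermal and posterior mesodermal fates, and the antagonists chordin and noggin, secreted by the node and notochord, shield the ectoderm that becomes neural. Chordin, noggin and gremlin bind BMPs directly. Follistatin binds activins most tightly and some BMPs as well.

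Library totals ran from 10.1 M to 26.3 M estimated counts. *Tet1* itself stood at 28.9 to 83.1 CPM (read counts relative to the scaled size of the library) in KO libraries and at 1308 to 1432 CPM in WT ESCs. On this scale KO libraries were below the WT libraries of the same day on every day. On TPM, which is corrected for transcript length, they overlapped on day 5, at 15.0 to 22.8 in KO and 17.3 to 23.7 in WT. Of the antNPC markers, *Sox1* reached 49.8 to 107 CPM in WT on day 5 and 2.72 to 5.75 CPM in KO, and the 6 antNPC markers summed to 313 to 397 CPM in WT and 126 to 135 CPM in KO. The streak gene *T* was at 8.40, 9.58 and 79.8 CPM on day 5 in WT, the last of the 3 values being the WT7 library of the time-course table, which stood apart. Day 5 values of KO against WT for the 9 genes are therefore also given without that library. In the WT libraries of day 4, all from the time-course table, *T* was at 58.4 (WT7) and 62.8 CPM (WT34). Day 4 has no libraries of the first table to set beside these, so its values carry this limit. In bulk RNA more cells of a type cannot be told apart from more RNA per cell, and this holds for every value below.

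The 9 genes lie on 6 chromosomes (mm10, positions from GENCODE M21). *Bmp2* (chr2:133552159-133562885), *Bmp7* (chr2:172868012-172940321) and *Grem1* (chr2:113746164-113758646) share chromosome 2 but not a neighbourhood. *Bmp4* lies at chr14:46383520-46390669, *Bmp5* at chr9:75775364-75900310, *Bmp6* at chr13:38345107-38500302, *Fst* at chr13:114452290-114458951, *Chrd* at chr16:20733127-20742384 and *Nog* at chr11:89300638-89302332. All are annotated as protein coding. *Nog* is a single exon of 1695 bases, while *Bmp5*, *Bmp6* and *Bmp7* have up to 7 exons spread over 125, 155 and 72.3 kb and *Chrd* has up to 24 exons within 9.26 kb.

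RefSeq promoter windows (GRCm38.p6, 250 bases before to 50 after the start, given on the gene's own strand) were at hand for 5 of the 9 genes. TET1 carries a zinc finger of the CXXC type that binds CpG-rich DNA, so the windows are compared by their CpG count. The 4 below belong to genes that passed between KO and WT on some day, which *Bmp6* did not. Capitals mark each CG dinucleotide.
Chrd, chr16:20732877-20733176, plus strand: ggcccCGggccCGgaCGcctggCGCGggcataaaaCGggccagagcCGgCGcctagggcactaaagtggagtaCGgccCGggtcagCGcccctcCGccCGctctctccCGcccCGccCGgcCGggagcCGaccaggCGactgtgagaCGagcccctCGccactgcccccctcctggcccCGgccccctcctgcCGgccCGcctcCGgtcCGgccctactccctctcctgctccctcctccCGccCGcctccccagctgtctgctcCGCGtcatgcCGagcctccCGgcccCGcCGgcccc
Grem1, chr2:113758599-113758898, minus strand: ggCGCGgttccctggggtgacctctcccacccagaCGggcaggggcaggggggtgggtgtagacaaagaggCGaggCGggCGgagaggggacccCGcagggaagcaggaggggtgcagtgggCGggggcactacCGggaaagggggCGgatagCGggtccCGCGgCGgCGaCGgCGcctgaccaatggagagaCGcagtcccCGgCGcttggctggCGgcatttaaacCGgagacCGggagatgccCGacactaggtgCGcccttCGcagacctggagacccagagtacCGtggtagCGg
Bmp4, chr14:46390620-46390919, minus strand: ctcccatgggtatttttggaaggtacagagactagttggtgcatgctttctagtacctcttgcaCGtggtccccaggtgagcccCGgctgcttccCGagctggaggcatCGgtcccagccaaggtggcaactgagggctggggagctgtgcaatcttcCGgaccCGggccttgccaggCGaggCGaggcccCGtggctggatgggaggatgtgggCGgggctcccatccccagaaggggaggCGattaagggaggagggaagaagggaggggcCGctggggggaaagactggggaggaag
Bmp5, chr9:75775115-75775414, plus strand: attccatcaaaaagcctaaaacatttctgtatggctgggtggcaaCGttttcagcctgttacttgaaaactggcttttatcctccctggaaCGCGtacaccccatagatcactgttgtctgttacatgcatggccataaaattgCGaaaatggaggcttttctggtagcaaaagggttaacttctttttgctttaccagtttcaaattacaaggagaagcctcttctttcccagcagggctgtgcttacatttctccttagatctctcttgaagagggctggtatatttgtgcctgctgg
The *Chrd* window held 34 CG dinucleotides, more than 92.3% of the 32841 promoter windows of this length, whose median was 7. The *Grem1* window held 28, that of *Bmp6* (not shown) 27, that of *Bmp4* 12 and that of *Bmp5* only 4, fewer than the median window. The *Chrd* and *Grem1* windows also held GGCGCC, a GC-rich element that SMAD1 can bind and that reads the same on both strands, which was found in 11.9% of all windows. *Bmp5*, with the CpG-poorest of these windows, and *Chrd*, with the CpG-richest, were both higher in KO cells on days 4 and 5 (below). Whether the CpG count of a window is tied to the KO effect was not tested.

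On the TPM scale, which is corrected for transcript length and so allows genes to be compared, *Bmp4* was the highest of the 9 in ESCs, at 42.5 to 43.1 TPM in WT and 25.0 to 56.3 TPM in KO. Within each genotype *Fst* came next without overlap, at 1.39 to 3.43 TPM in WT and 2.32 to 4.10 TPM in KO. *Grem1* (0.607 to 1.28 TPM over both genotypes) and *Bmp7* (0.395 to 1.42 TPM) followed and overlapped one another, and *Bmp2*, *Bmp5*, *Bmp6*, *Chrd* and *Nog* all stayed at or below 0.520 TPM. On day 5 the order in KO cells was *Bmp4* (31.8 to 49.2 TPM), *Bmp7* (14.8 to 16.1 TPM), *Bmp5* (11.4 to 16 TPM) and *Bmp2* (5.65 to 10.9 TPM), of which *Bmp7* and *Bmp5* overlapped and *Bmp5* and *Bmp2* did not. *Fst* (4.02 to 7.76 TPM) and *Nog* (4.85 to 5.66 TPM) overlapped *Bmp2* and one another, *Chrd* (2.21 to 5.25 TPM) overlapped *Fst* and *Nog* but not *Bmp2*, and *Grem1* (1.13 to 1.96 TPM) and *Bmp6* (0.630 to 1.52 TPM) were lowest. In WT cells of day 5 *Bmp4* (18.8 to 30.6 TPM) and *Bmp7* (8.46 to 9.13 TPM) stood above every other ligand, and *Bmp5* was at 0.128 to 1.89 TPM. The TPM of *Bmp4* is the least certain of these values. Its counts per TPM, taken relative to the median gene of the same library, ranged from 0.0612 to 1.04 over the 36 libraries, a 16.9-fold range, against a range of at most 3.59-fold for any other of the 9 genes. *Bmp4* has 4 annotated transcripts of 258 to 2064 bases, among which reads were shared by estimate. The median of these relative counts per TPM was 0.199 for *Bmp4*, 2.26 for *Bmp2* and 2.34 for *Bmp7*. The *Bmp4* TPM was thus high for its counts. On CPM, not corrected for length, *Bmp4* was still highest in ESCs. In KO on day 5 its 16.4 to 29.3 CPM lay below *Bmp7* (112 to 115), *Bmp5* (49.7 to 69.5) and *Bmp2* (38.9 to 80.4). In WT on day 5 its 9.04 to 19.9 CPM lay below *Bmp7* (60.7 to 71.6). The top place on day 5 depended on the scale. The reported fit between groups is therefore on counts, and TPM enters such comparisons only where limma on log2(TPM + 1) is named as an alternative.

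In KO cells *Bmp7* was higher than in WT already in ESCs, and from day 3 most of the 9 genes differed. In KO against WT cells *Bmp7* passed the test (edgeR quasi-likelihood F test, Benjamini-Hochberg adjusted p below 0.05, and a log2 fold change past 1 in size) on days 0, 3 and 4, *Bmp2* and *Chrd* on days 3, 4 and 5, *Bmp5* and *Nog* on days 4 and 5, and *Fst* and *Bmp4* on day 3. *Grem1* was lower in KO on day 4 and higher on day 5, and *Bmp6* passed on no day. By number, 1 of 9 passed on day 0, where 0.866% of all tested genes passed, and none passed on day 1 (0.634% of all) or day 2 (0.616%). On day 1 no member reached an unadjusted p under 0.05, and DESeq2 and limma also called none. On day 2 the unadjusted count was 2, and DESeq2 and limma called none. On day 3, 5 of 9 passed, all higher in KO, against 3.96% of all tested genes (2.09% higher and 1.87% lower). On day 4, 5 were higher and 1 lower, against 7.68% of all genes (3.40% higher and 4.28% lower). On day 5, 5 were higher and none lower, against 11.7% of all genes (5.99% higher and 5.73% lower). The median log2 fold change of the 9 genes was 1.31 on day 3, 1.58 on day 4 and 1.08 on day 5, where the medians of all tested genes were 0.01, 0.00 and -0.01. The rule that fixed the members does not use these values, but the members were proposed with earlier results of these data known.

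**Figure D1:**
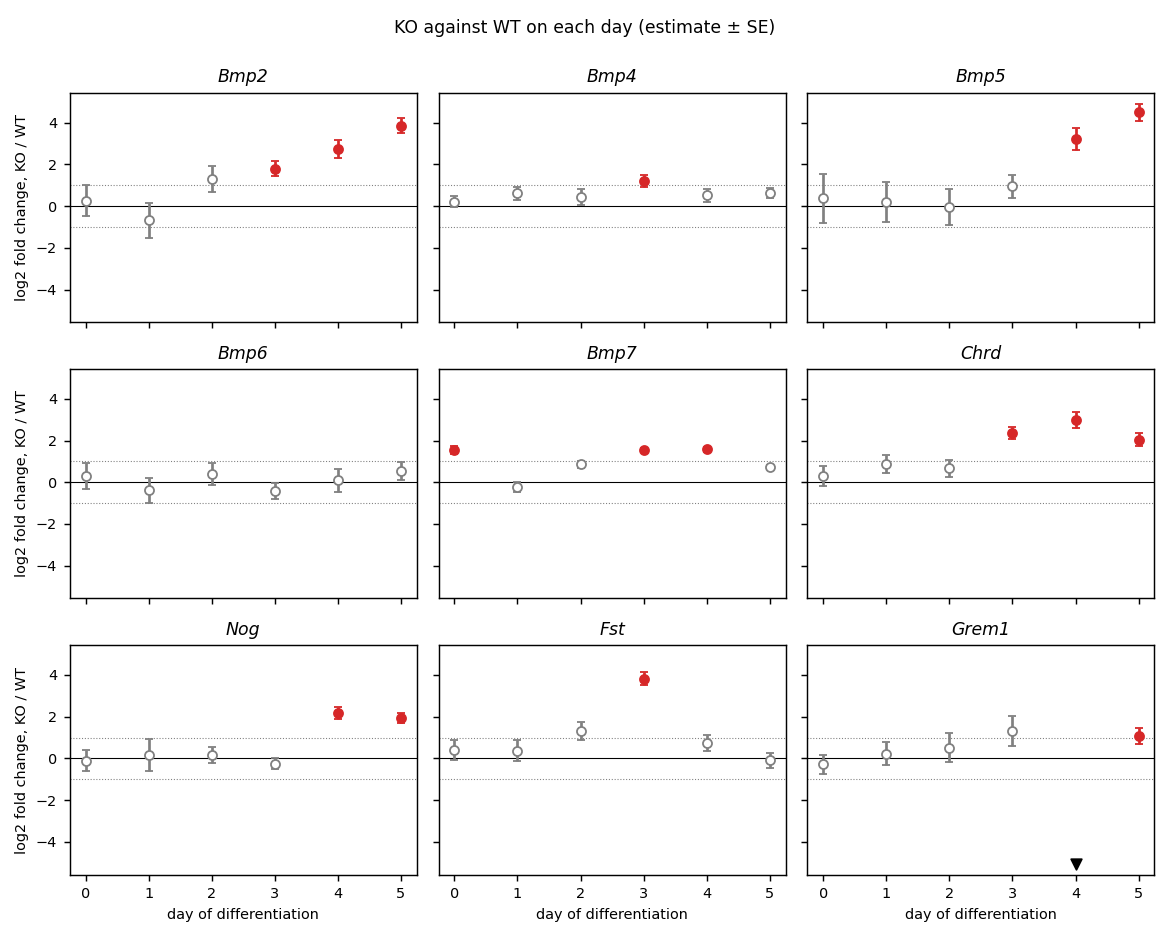
Log2 fold change of KO over WT (y axis) by day of differentiation (x axis) for each of the 9 genes, with its standard error. Filled red points passed the test, open grey points did not, dotted lines mark a log2 fold change of 1 in either direction, and the black triangle is the bound for *Grem1* on day 4, where KO libraries held no count. *Bmp7* is filled on day 0, *Bmp2* and *Bmp5* climb up to day 5, and *Chrd* and *Nog* are highest on day 4.

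Other lineages' markers moved over the same days. The summed level of the 6 primitive streak markers was 409 to 734 CPM in KO and 12.1 to 25.4 CPM in WT on day 3, with *T* at 194 to 220.5 CPM in KO. The 8 mesoderm and cardiac markers summed to 407 to 484 CPM in KO and 28.7 to 100.0 CPM in WT on day 5. The 6 definitive endoderm markers summed to 497 to 505 CPM in KO and 52.0 to 53.2 CPM in WT on day 4. On day 5 they summed to 360 to 386 CPM in KO and 30.0 to 135 CPM in WT. Of the node and notochord markers, *Foxj1* stood at 78.2 and 74.4 CPM in KO and 11.7 and 11.6 CPM in WT on day 4, and *Shh* at 32.7, 46.0 and 90.5 CPM in KO and 0.454, 0.464 and 7.55 CPM in WT on day 5. On day 5 *Foxj1* stood at 10.7, 10.0 and 7.12 CPM in KO and 4.39, 4.40 and 17.0 CPM in WT, which overlapped. *Noto*, which defines the node most narrowly, stood at 3.76 and 5.60 CPM in KO and 0.223 and 0.352 CPM in WT on day 4. On day 5 *Noto* was at 0.532, 0.889 and 1.31 CPM in KO and 0.0757, 0 and 0.944 CPM in WT, which overlapped. The 5 markers of that list summed to 156 to 163 CPM in KO and 21.5 to 22.2 CPM in WT on day 4, but *Chrd* and *Nog* are 2 of the 5. The part of these cell types in the BMP gene levels was not tested.

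*Bmp7*, a ligand needed for kidney and eye formation, was the 1 gene of the 9 to differ in ESCs. On day 0 it stood at 8.83 and 11.9 CPM in KO1 and KO15 and at 3.36 and 3.68 CPM in WT7 and WT34, so the groups did not overlap. The log2 fold change was 1.54 ± 0.18 (SE; adjusted p = 1.02e-05, edgeR), and leaving out any 1 of the 4 libraries kept the call. With limma on log2(TPM + 1), a scale that understates low genes, the value was 0.66 (adjusted p = 0.00154) and fell short of the fold set. On day 1 the genotypes overlapped, at 1.99 and 2.08 CPM in KO and 3.03 and 1.72 CPM in WT (log2 fold change -0.21 ± 0.24, adjusted p = 0.763). On day 2 KO libraries stood at 9.92 and 10.1 CPM and WT libraries at 4.96 and 6.11 CPM, a log2 fold change of 0.85 ± 0.17 with an adjusted p of 0.00582 that fell short of the fold set, and without the WT34 library it was 1.01 and passed (adjusted p = 0.0227). On day 3 the 4 KO libraries ranged from 33.7 to 43.7 CPM and the 4 WT libraries from 12.2 to 14.9 CPM. The difference, 1.53 ± 0.10 on the log2 scale (adjusted p = 8.96e-11), was close to that of day 4, 1.58 ± 0.13 (adjusted p = 5.20e-09), when KO stood at 110.3 and 106 CPM and WT at 39.4 and 33.0 CPM. By day 5 WT had risen to 70.6, 71.6 and 60.7 CPM while KO stayed at 112, 115 and 113 CPM, and the log2 fold change of 0.75 ± 0.11 no longer passed the fold set although the libraries did not overlap (adjusted p = 5.23e-06), with 0.70 without the WT7 time-course library. KO libraries were at about 1 level on days 4 and 5, and WT libraries of day 5 were all above those of day 4.

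*Bmp2*, a ligand needed for heart and amnion formation, was near the limit of detection in ESCs, at 1.21 and 0.471 CPM in KO and 0.407 and 0.906 CPM in WT. On day 3 the KO libraries ranged from 4.18 to 5.83 CPM and the WT libraries from 1.15 to 1.87 CPM, a log2 fold change of 1.80 ± 0.35 (adjusted p = 5.81e-04), which with limma on log2(TPM + 1) was 0.48 and did not pass (adjusted p = 0.0554). On day 4 it stood at 26.9 and 18.0 CPM in KO and 2.23 and 4.51 CPM in WT (2.73 ± 0.44, adjusted p = 6.20e-05). On day 5 the KO libraries held 80.4, 75.3 and 38.9 CPM and the WT libraries 3.18, 3.01 and 6.95 CPM, a log2 fold change of 3.86 ± 0.36 (adjusted p = 7.87e-09). The third library of each list comes from the time-course table, and the 2 genotypes were nearer to each other there. With the first table alone the day 5 value was 4.66, with the time-course table alone 2.48 and without the WT7 time-course library 4.50, and all 3 passed. The day 4 value was 3.35 without the WT34 library.

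*Bmp5*, a ligand of the same subgroup as *Bmp6* and *Bmp7*, was almost silent until day 3, with 0.181 to 1.31 CPM over all KO and WT libraries of days 0 to 3. On day 3 the KO and WT libraries overlapped (log2 fold change 0.95 ± 0.55, adjusted p = 0.289). On day 4 it stood at 13.4 and 12.2 CPM in KO and 1.63 and 1.13 CPM in WT (3.21 ± 0.53, adjusted p = 8.88e-05). On day 5 it reached 69.5, 64.7 and 49.7 CPM in KO against 0.908, 1.39 and 7.55 CPM in WT, and its log2 fold change of 4.49 ± 0.42 (adjusted p = 7.28e-09) was the highest of the 9 genes on any day. The WT7 time-course library held more *Bmp5* than the other WT libraries of that day. Without it the log2 fold change was 5.75, without the KO1 time-course library 5.24, with the first table alone 5.87 and with the time-course table alone 2.72, and all of these passed.

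*Bmp4*, which supports ESC self-renewal together with LIF and later drives posterior mesoderm, was high at the start. In ESCs it stood at 39.1 and 28.7 CPM in KO and 30.7 and 27.5 CPM in WT, which overlapped (log2 fold change 0.22 ± 0.27, adjusted p = 0.784). It was at 7.01 and 6.42 CPM in KO and 5.42 and 3.29 CPM in WT on day 1 and at 3.28 and 1.54 CPM in KO and 2.01 and 1.55 CPM in WT on day 2. On day 3 it stood at 1.94 to 2.74 CPM in KO and 0.763 to 1.51 CPM in WT. That day was the only day on which it passed between genotypes, at a log2 fold change of 1.19 ± 0.28 (adjusted p = 0.00386). The call did not hold everywhere. Without the KO15 time-course library the value was 0.94, short of the fold set, with the first table alone it was 0.94 (adjusted p = 0.0922), and with limma on log2(TPM + 1) it was 0.74 (adjusted p = 0.403), and the TPM of the genotypes overlapped (2.35 to 4.17 in KO, 0.350 to 5.99 in WT). On day 4 it stood at 7.80 and 7.60 CPM in KO and 5.35 and 5.35 CPM in WT (0.52 ± 0.31, adjusted p = 0.289). On day 5 *Bmp4* was at 29.3, 24.7 and 16.4 CPM in KO and 17.0, 19.9 and 9.04 CPM in WT, with overlapping libraries (log2 fold change 0.64 ± 0.23, adjusted p = 0.0330, or 0.46 and 0.162 without the WT7 time-course library).

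*Bmp6*, a ligand known for its control of iron balance in the adult liver, had the narrowest range of the 9. Over the KO and WT libraries of all days it ranged from 0.712 to 6.95 CPM, and the genotypes overlapped on every day, with adjusted p between 0.419 and 0.957. On day 5 the 3 KO libraries held 6.05, 6.52 and 2.06 CPM and the 3 WT libraries 2.42, 1.85 and 6.95 CPM, with the time-course libraries last in each list. The time-course pair lay in the reverse order to the rest. With the first table alone the log2 fold change was 1.56 (adjusted p = 0.00980), without the KO1 time-course library 1.15 (adjusted p = 0.0347) and without the WT7 time-course library 1.23 (adjusted p = 0.0469), each past the threshold, where all libraries gave 0.54 ± 0.45 (adjusted p = 0.419).

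**Figure D2:**
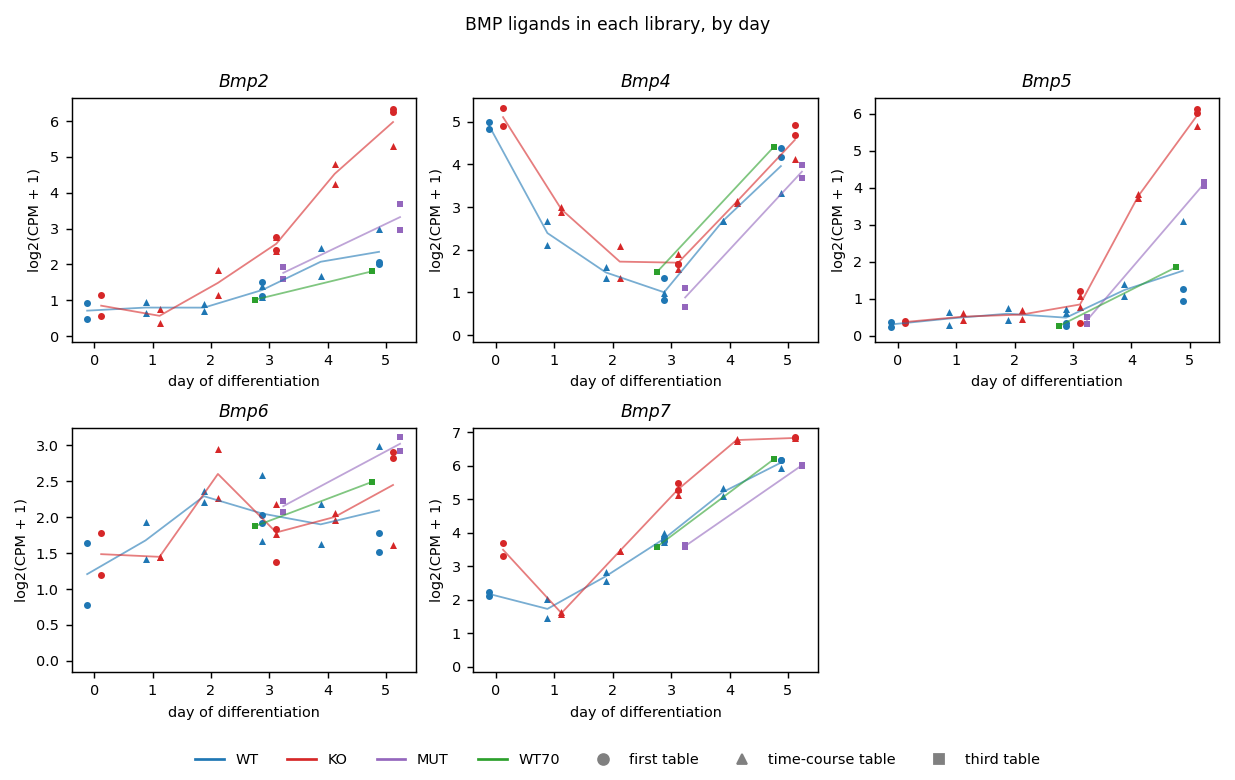
Level of the 5 ligands (y axis, log2 of CPM plus 1) by day of differentiation (x axis), 1 point per library, with lines through the group means and the point shape giving the deposited table. KO points of *Bmp2*, *Bmp5* and *Bmp7* lie above the WT points on day 4, *Bmp4* falls to day 3 and returns in both genotypes, and the WT triangle of day 5 stands above the WT circles for *Bmp2* and *Bmp5*.

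*Chrd* encodes chordin, the BMP antagonist of the node. It was low in ESCs, at 2.63 and 2.12 CPM in KO and 2.14 and 1.81 CPM in WT. On day 2 it stood at 4.74 and 6.24 CPM in KO and 3.81 and 3.09 CPM in WT, where the libraries did not overlap but the test was not passed (log2 fold change 0.66 ± 0.41, adjusted p = 0.586). On day 3 the KO libraries held 11.2, 11.1, 19.1 and 16.2 CPM and the WT libraries 2.98, 2.45, 2.48 and 3.21 CPM, a log2 fold change of 2.34 ± 0.29 (adjusted p = 1.73e-06). The peak came on day 4, at 51.1 and 49.0 CPM in KO against 7.13 and 5.49 CPM in WT (2.99 ± 0.38, adjusted p = 2.63e-06). By day 5 KO libraries were down to 12.9, 13.2 and 31.2 CPM and WT libraries stood at 1.74, 1.62 and 12.1 CPM. The difference on day 5 was 2.04 ± 0.32 (adjusted p = 1.55e-05), 2.96 with the first table alone, 1.37 with the time-course table alone and 3.18 without the WT7 time-course library, and it passed each time. That library held about as much *Chrd* as the KO libraries of the first table.

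*Nog*, the intronless gene of noggin, differed later than *Chrd*. Up to day 3 the genotypes did not differ past the threshold, and on day 3 KO libraries stood at 0.397 to 1.48 CPM and WT libraries at 0.935 to 1.59 CPM (log2 fold change -0.26 ± 0.26, adjusted p = 0.595). On day 4 it was at 16.1 and 12.5 CPM in KO and 2.75 and 3.59 CPM in WT (2.17 ± 0.31, adjusted p = 1.01e-05). On day 5 it was at 16.8, 20.1 and 17.5 CPM in KO and 3.94, 3.71 and 7.49 CPM in WT, a log2 fold change of 1.93 ± 0.24 (adjusted p = 8.30e-07), or 2.15 without the WT7 time-course library. With the time-course table alone, where day 5 has 1 library per genotype, the value was 1.23 and missed the threshold (adjusted p = 0.0545).

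*Fst*, the gene of follistatin, peaked in KO on day 3. It stood at 13.0 and 10.1 CPM in KO ESCs and 6.51 and 10.5 CPM in WT ESCs, and on day 2 at 27.1 and 25.5 CPM in KO and 10.9 and 10.1 CPM in WT, a difference that did not pass (log2 fold change 1.32 ± 0.45, adjusted p = 0.161). On day 3 all 4 KO libraries stood at 186 to 197 CPM. The WT libraries held 8.60, 6.33, 25.1 and 23.2 CPM, of which the first 2 are from the first table and the last 2 from the time-course table. The log2 fold change was 3.83 ± 0.32 (adjusted p = 3.58e-09) over all libraries, 4.68 with the first table alone and 3.04 with the time-course table alone. The KO libraries of the 2 tables were alike on that day and the WT libraries were not. On day 4 KO had come down to 78.8 and 115 CPM and WT had risen to 53.6 and 62.2 CPM (log2 fold change 0.74 ± 0.39, adjusted p = 0.232). On day 5 KO held 13.4, 22.7 and 20.8 CPM and WT 7.95, 12.9 and 52.3 CPM, and no difference passed over all libraries (-0.09 ± 0.36, adjusted p = 0.899). Without the WT7 time-course library, the last of the WT values, the log2 fold change was 0.70 (adjusted p = 0.132). In the time-course table alone KO1 was below WT7 on day 5, with a log2 fold change of -1.33 (adjusted p = 0.00118), with 1 library of each, whose spread was taken from the other days of that table.

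*Grem1*, the gene of gremlin, fell and returned like *Bmp4*. It stood at 11.0 and 5.26 CPM in KO ESCs and 8.45 and 11.2 CPM in WT ESCs, at 1.30 and 2.26 CPM in KO and 1.75 and 1.33 CPM in WT on day 1, at 0.632 and 0.881 CPM and 0.359 and 0.696 CPM on day 2, and at 0 to 0.464 CPM over both genotypes on day 3. The ESCs had been grown on fibroblast feeders, which the paper says were depleted by re-plating. The fibroblast marker *Col1a1* ranged from 26.0 to 40.2 CPM over KO and WT on day 0. Its range was 2.42 to 5.03 CPM on day 3 and 17.9 to 34.5 CPM on day 5. The 7 fibroblast feeder markers summed to 80.98 to 104.8 CPM in KO and 99.5 to 106 CPM in WT on day 0. On day 3 they summed to 30.8 to 36.2 CPM in KO and 47.1 to 50.02 CPM in WT. The day 4 sums were 14.98 to 16.6 CPM in KO and 43.8 to 50.07 CPM in WT. Those of day 5 were 38.6 to 67.8 CPM in KO and 88.6 to 99.7 CPM in WT. The part of feeder RNA in the levels of *Grem1* and the other members, on day 0 or later, was not tested. The day 3 difference was 1.31 ± 0.71 (adjusted p = 0.249) and passed in the time-course table alone (3.52, adjusted p = 0.0337). On day 4 the 2 KO libraries held no count, where the WT libraries held 40 and 61 counts (2.97 and 4.30 CPM). *Grem1* was therefore at least 33.6-fold lower in KO, the bound being set by 3 counts over the KO group and covering counting error only (adjusted p = 1.00e-05). On day 5 it was back in KO at 15.5, 11.9 and 8.34 CPM, against 7.87, 7.88 and 2.29 CPM in WT, and every KO library was above every WT library. The log2 fold change of 1.08 ± 0.39 passed narrowly (adjusted p = 0.0340). It was 0.81 with the first table alone, 1.02 without the KO1 library of the first table, 0.99 without the KO1 time-course library and 0.77 without the WT7 time-course library, and passed in none of these (adjusted p 0.0642, 0.106, 0.0969 and 0.174). Without a term for the table it was 0.99, and with libraries of 1 line and day summed 0.97, both short of the fold set. With the time-course table alone it was 1.86 (adjusted p = 0.0612). With limma on log2(TPM + 1), *Grem1* was at -0.57 on day 4 (adjusted p = 0.0221) and 0.54 on day 5 (adjusted p = 0.00386), both short of the fold set.

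**Figure D3:**
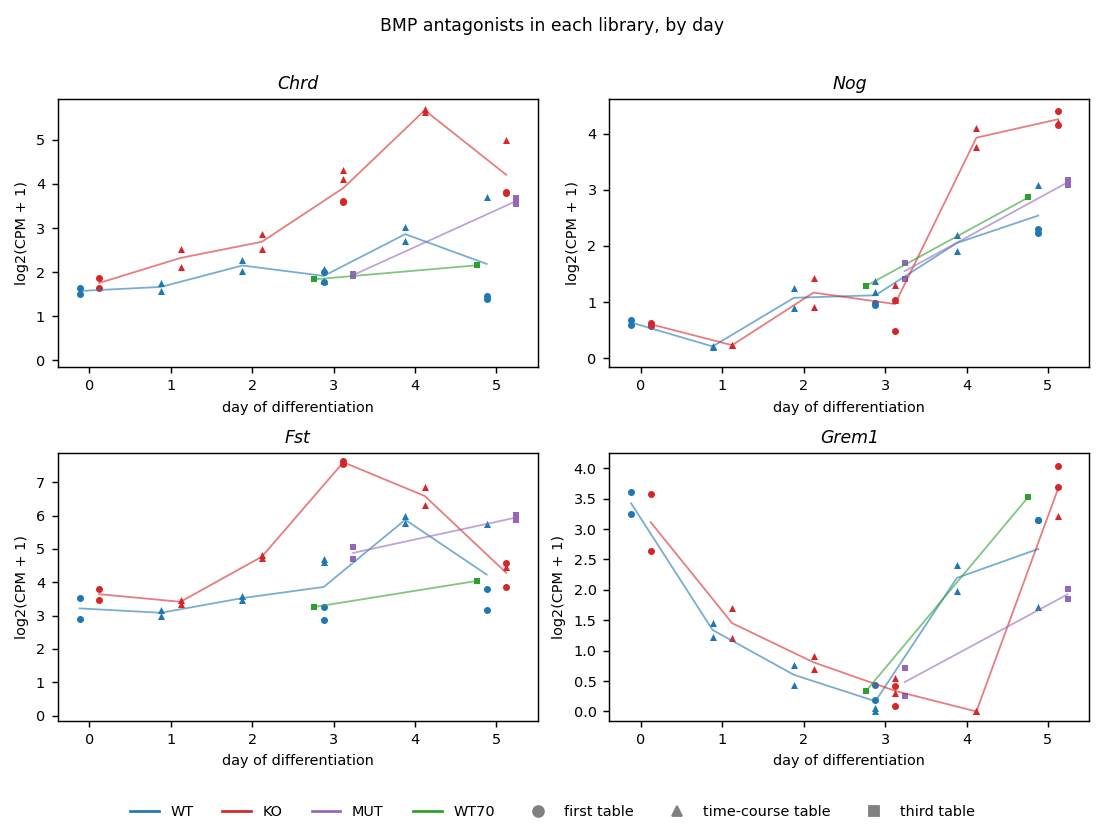
Level of the 4 antagonists (y axis, log2 of CPM plus 1) by day of differentiation (x axis), 1 point per library, with lines through the group means and the point shape giving the deposited table. *Fst* peaks in KO on day 3 and *Chrd* on day 4, *Nog* climbs on days 4 and 5, *Grem1* lies at 0 in both KO libraries of day 4, and the WT points of *Fst* on days 3 and 5 separate by table.

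Within WT cells, 3 of the 9 genes passed from day 0 to day 3, where 22.5% of all tested genes passed (12.9% higher and 9.62% lower). *Bmp7* rose by 1.95 ± 0.17 (log2, SE), and *Bmp4* and *Grem1* changed by -4.58 ± 0.29 and -5.84 ± 0.57, the latter by -6.74 without the WT7 library of the first table on day 3. From day 3 to day 5, 6 rose and none fell, against 15.5% of all genes (7.49% higher and 7.99% lower). *Grem1* (5.31 ± 0.54, or 6.18 without the same WT7 library), *Bmp4* (3.78 ± 0.27), *Bmp5* (2.90 ± 0.50), *Bmp7* (2.33 ± 0.11), *Nog* (2.13 ± 0.25) and *Bmp2* (1.62 ± 0.38) rose. Without the WT7 time-course library of day 5, *Bmp2* was at 0.93 and did not pass (adjusted p = 0.0763) and *Bmp5* was at 1.35 and did. *Chrd* did not pass (0.80 ± 0.32) but did when 1 of 3 other libraries was left out, at 1.06 without the WT7 library of day 3 in the first table, 1.12 without the WT7 library and 1.14 without the WT34 library of day 5 in that table. *Fst* likewise was at 0.69 ± 0.33, and at 1.03 without the WT7 library of the first table on day 5, which passed.

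Within KO cells, 6 of the 9 passed from day 0 to day 3, where 21.2% of all genes passed (10.8% higher and 10.4% lower). *Fst* (3.64 ± 0.43), *Bmp2* (2.56 ± 0.53), *Chrd* (2.02 ± 0.39) and *Bmp7* (1.94 ± 0.14) rose, and *Bmp4* (-3.61 ± 0.27) and *Grem1* (-4.25 ± 0.53) fell. Without the KO1 library of day 0, *Bmp2* was at 3.41 and *Grem1* at -3.63, and without the KO15 time-course library of day 3 *Grem1* was at -4.86, all past the threshold. From day 3 to day 5, 7 rose and 1 fell, against 22.3% of all genes (11.4% higher and 10.9% lower). *Bmp5* rose by 6.45 ± 0.42, *Grem1* by 5.08 ± 0.46, *Nog* by 4.32 ± 0.25, *Bmp2* by 3.68 ± 0.32, *Bmp4* by 3.22 ± 0.24 and *Bmp7* by 1.54 ± 0.10, and *Fst* was the gene that fell, by a log2 fold change of -3.23 ± 0.34. Leaving out 1 library moved *Bmp5* to 7.06 (without KO15 of day 3, first table) or 7.23 (without KO1 of day 5, time-course table) and *Grem1* to 5.77 (without KO15 of day 3, time-course table). *Bmp6* passed at 1.12 ± 0.42 although its libraries overlapped. It was at 1.76 without the KO1 time-course library of day 5, and it did not pass without KO1 of day 3 in the first table (0.98), KO15 of day 3 in the time-course table (1.06), or KO1 (0.94) or KO15 (0.86) of day 5 in the first table.

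Over all 6 days at once (an F test on 5 coefficients, adjusted p under 0.05 with no fold set), 8 of 9 genes changed in WT cells, where 70.8% of all genes did, and 9 of 9 in KO cells, where 72.5% did. The WT and KO counts are thus read against a background in which most genes changed. *Bmp6* did not pass in WT (adjusted p = 0.293, or 0.0224 without the filter on low counts) and in KO had an adjusted p of 0.0186, which was 0.0621 without the KO1 and 0.0721 without the KO15 library of day 5 in the first table. *Chrd* lost its WT call without a term for the table (adjusted p = 0.0540) and with the compared libraries only (adjusted p = 0.126), and *Bmp2* with limma on log2(TPM + 1) (adjusted p = 0.0557). The course differed between genotypes for 7 of 9, against 26.2% of all genes. *Fst* (adjusted p = 4.50e-06), *Bmp7* (1.80e-05), *Nog* (7.49e-05), *Grem1* (8.48e-05), *Bmp5* (5.30e-04), *Bmp2* (7.70e-04) and *Chrd* (0.00271) passed this test, and *Bmp4* (0.469) and *Bmp6* (0.742) did not. Without a term for the table, *Chrd* no longer passed (adjusted p = 0.0746).

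MUT cells address how far these changes follow the loss of catalytic activity, since the paper reports full-length TET1 protein in its MUT ESC lines. It stood at 319.7 and 251 CPM in MUT and 254 CPM in WT70 on day 3. From day 3 to day 5, 8 of 9 genes rose in MUT and none fell, against 17.4% of all genes (8.80% higher and 8.59% lower). *Bmp5* rose by 5.54 ± 0.61, *Bmp4* by 3.91 ± 0.35, *Grem1* by 2.70 ± 0.58 (3.79 without the CM69 library of day 3), *Bmp7* by 2.51 ± 0.14, *Nog* by 2.00 ± 0.31, *Chrd* by 1.99 ± 0.39 and *Bmp2* by 1.93 ± 0.44. *Fst* also passed, at 1.08 ± 0.40, but leaving out any 1 of the 4 libraries lost the call (log2 fold change 1.28 and 0.90 without CM59 and CM69 of day 3, and 1.19 and 0.99 without those of day 5).

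Against WT70 on day 3, no member passed in MUT, where 0.148% of all genes did. The edgeR count at an unadjusted p under 0.05 was 2, and DESeq2 and limma called none. *Fst* stood at 32.5 and 25.0 CPM in the MUT clones and 8.57 CPM in WT70 (1.74 ± 0.56, adjusted p = 0.408). *Fst* did pass in 4 alternatives. These were the compared 3 libraries only (1.74), no filter on low counts (1.74), WT7 and WT34 as the control (1.49, adjusted p = 0.0119) and all 3 WT lines as the control (1.61, adjusted p = 0.0237). The compared 3 libraries hold 1 of WT70, so the spread in that fit rests on the 2 MUT libraries and on other genes. In the fit without a filter a gene's own spread was not used. *Bmp7* stood at 11.0 and 11.3 CPM in MUT and 11.0 CPM in WT70 (log2 fold change 0.02 ± 0.18), and *Chrd* at 2.88 and 2.76 CPM in MUT and 2.57 CPM in WT70 (0.13 ± 0.52). Since WT70 has 1 library a day, its spread was taken to equal that of the remaining groups.

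On day 5, 2 of 9 passed against WT70, both higher, where 1.87% of all genes passed (1.26% higher and 0.611% lower). *Bmp5* stood at 16.7 and 15.7 CPM in MUT and 2.61 CPM in WT70 (log2 fold change 2.63 ± 0.63, adjusted p = 0.0188). *Fst* stood at 57.0 and 64.2 CPM in MUT and 15.5 CPM in WT70 (1.97 ± 0.54, adjusted p = 0.0456). Both calls were lost when either MUT library was left out, with adjusted p of 0.0652 without CM59 and 0.0564 without CM69 for *Bmp5* (log2 fold change 2.59 and 2.67), and of 0.0963 and 0.148 for *Fst* (2.06 and 1.88). Short of the threshold, *Bmp2* was at 11.8 and 6.83 CPM in MUT and 2.50 CPM in WT70 (1.89 ± 0.57, adjusted p = 0.0727). *Chrd* was at 11.8 and 10.7 CPM in MUT and 3.45 CPM in WT70 (1.70 ± 0.50, adjusted p = 0.0605). *Grem1* was at 3.02 and 2.60 CPM in MUT and 10.6 CPM in WT70 (-1.91 ± 0.55, adjusted p = 0.0570). DESeq2 called all 5, with adjusted p of 0.0330 for *Bmp2*, 0.0223 for *Chrd* and 0.0317 for *Grem1*. Against WT7 and WT34, which are in other tables than MUT, 4 passed, *Chrd* at 1.76 and *Grem1* at -1.27 among them, and table and genotype cannot be told apart there. Among markers, the MUT libraries of day 5 held 97.2 to 117 CPM of summed primitive streak markers where WT70 held 15.5 CPM, and 185 to 188 CPM of mesoderm and cardiac markers where WT70 held 101 CPM. Their part in the BMP gene levels was not tested.

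The difference between the KO effect and the MUT effect was itself tested. On day 3, 1 of 9 passed, against 0.394% of all genes. This was *Bmp7*, whose KO effect was above its MUT effect by 1.52 ± 0.20 (adjusted p = 1.09e-04), and the call held in each of the 10 fits that left out 1 KO, WT or MUT library of day 3, while WT70 could not be left out. *Chrd* differed by 2.21 ± 0.59 (adjusted p = 0.0894) and passed without the WT7 library of the first table (2.49, adjusted p = 0.0444), with DESeq2 (adjusted p = 0.0258) and with the compared libraries only (adjusted p = 0.00359). *Bmp4* differed by 2.22 ± 0.55 (adjusted p = 0.0623) and passed with DESeq2 (adjusted p = 0.00814). Without the filter on low counts, *Bmp4*, *Chrd* and *Fst* passed as well. On day 5, 2 of 9 passed, against 3.62% of all genes. *Grem1* differed by 2.99 ± 0.67 (adjusted p = 0.00697), being higher than control in KO and having a log2 fold change of -1.91 in MUT. *Nog* differed by 1.62 ± 0.42 (adjusted p = 0.0189), with 7.47 and 8.08 CPM in MUT and 6.29 CPM in WT70 on that day. The *Nog* call was lost without CM59 (1.58, adjusted p = 0.0749) and without CM69 (1.68, adjusted p = 0.0560). Other genes passed in some alternatives. DESeq2 called *Bmp2* (adjusted p = 0.0472), *Bmp4* (0.0408) and *Fst* (0.0468), limma called *Bmp2* (0.00161) and *Bmp5* (0.0188), the compared libraries alone *Bmp4* (0.0221), and the fit without a filter all 4 of these genes. Without the WT7 time-course library *Bmp2* was at 2.61, *Bmp5* at 3.11 and *Chrd* at 1.47, where all libraries gave 1.98 ± 0.66, 1.86 ± 0.72 and 0.34 ± 0.57. Without the KO1 time-course library *Bmp2* was at 2.39, *Bmp4* at 1.34 and *Bmp5* at 2.60. *Bmp4* also passed without WT34 of the first table (1.41), and *Fst* without KO15 (-2.43) or WT7 (-2.42) of that table, where all libraries gave 1.24 ± 0.40 and -2.06 ± 0.64.

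**Figure D4:**
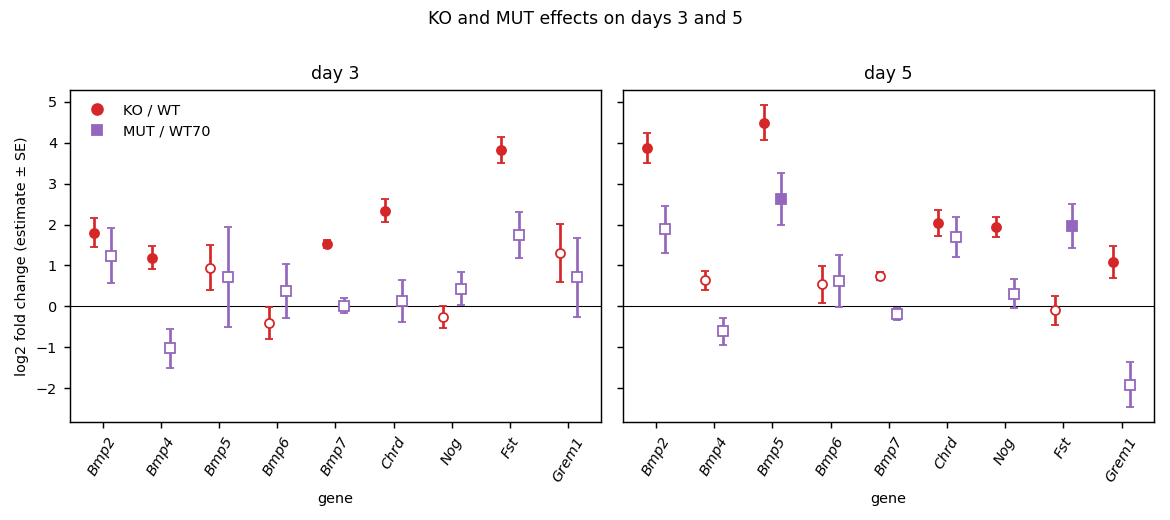
Log2 fold change (y axis, with its standard error) of KO over WT (red circles) and of MUT over WT70 (purple squares) for the 9 genes (x axis) on day 3 and day 5. Filled symbols passed the test, and open symbols did not. *Bmp7* shows a KO effect of 1.53 and a MUT effect of 0.02 on day 3, and *Grem1* lies on opposite sides of 0 on day 5.

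The rest of the pathway was read from lists of other ligands, other antagonists, receptors, SMADs and response genes. The KO against WT counts of these lists are to be read beside the shares of all tested genes. These were 3.96% on day 3 (2.09% higher and 1.87% lower) and 7.68% on day 4 (3.40% and 4.28%). On day 5 the share was 11.7% (5.99% and 5.73%). Of 11 other BMP and GDF ligands tested (of 14 listed), 1 rose and none fell in KO against WT on day 3, none rose and 3 fell on day 4, and none rose and 1 fell on day 5. *Gdf3*, a Nodal-related ligand of pluripotent cells, was at 11.6 ± 2.73 CPM (SD, n = 4) in KO and 5.59 ± 1.29 CPM (SD, n = 4) in WT on day 3 (log2 fold change 1.04 ± 0.11, adjusted p = 1.95e-07). *Gdf7*, a ligand of the roof plate, had 2 counts in KO on day 4, a ratio of WT to KO of 15.0-fold (95% interval 3.80 to 129) that covers counting error only, and none on day 5, when it was at least 32.6-fold lower in KO than in WT. *Gdf10* was at 0.274 to 0.537 CPM in KO and 1.76 to 2.00 CPM in WT on day 4 (-2.21 ± 0.57, adjusted p = 0.00781). The summed roof plate and midbrain markers stood at 9.17 to 27.2 CPM in KO and 63.6 to 173 CPM in WT on day 5.

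Of 17 other extracellular antagonists and modulators tested (of 19 listed), 2 rose and 1 fell on day 3, 5 rose and 1 fell on day 4, and 6 rose and 2 fell on day 5. *Cer1*, which blocks BMP and Nodal ligands, was at 120.1 to 131 CPM in KO and 5.00 to 7.28 CPM in WT on day 4 (4.36 ± 0.64, adjusted p = 3.28e-05). *Smoc2*, a secreted matrix protein, was at 3.04 to 4.24 CPM in KO and 0.139 to 1.15 CPM in WT on day 3 (2.59 ± 0.40, adjusted p = 3.55e-05). *Kcp*, a chordin-like modulator, was at 6.98 to 12.2 CPM in KO and 0.454 to 2.23 CPM in WT on day 5 (2.89 ± 0.30, adjusted p = 5.03e-08), or 3.21 without the WT7 time-course library, when 6 of the list rose and 1 fell. The median log2 fold change of this list was 0.00, 0.26 and 0.69 on days 3, 4 and 5.

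Of 13 receptors and co-receptors, all tested, 1 rose on day 3, 1 rose and 2 fell on day 4, and 2 rose and 2 fell on day 5, with medians of -0.02, 0.01 and 0.30. *Tgfbr3*, the co-receptor betaglycan, was the member with the smallest p on each of these days, at 2.60 ± 0.10, 1.54 ± 0.13 and 2.28 ± 0.11 on the log2 scale, and stood at 137 ± 24.1 CPM (SD, n = 3) in KO and 28.3 ± 6.86 CPM (SD, n = 3) in WT on day 5. *Bmpr1b*, a type I receptor, was lower in KO on day 4 (-1.68 ± 0.32, adjusted p = 4.58e-04). Of 8 SMADs and regulators, 1 rose on day 3 and 3 on day 5, and none passed on day 4, where 3 had an unadjusted p under 0.05 (edgeR).

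The BMP response genes moved in both directions on days 3 and 4. Of 10 such genes, *Smad6* and *Smad7* of the SMAD list among them, 2 rose and 1 fell on day 3, 2 rose and 2 fell on day 4, and 6 rose and none fell on day 5, with median log2 fold changes of 0.34, 0.36 and 1.39. *Id2* was lower in KO on day 4, at 3.56 to 4.37 CPM against 20.9 to 21.9 CPM in WT (-2.43 ± 0.25, adjusted p = 1.26e-07), while *Id1* was higher, at 25.3 to 31.7 CPM against 10.3 CPM in both WT libraries (1.47 ± 0.19, adjusted p = 3.48e-06). On day 5 the feedback inhibitors *Bambi* (52.2 ± 26.0 CPM in KO and 10.5 ± 1.42 CPM in WT, SD, n = 3 each, log2 fold change 2.22 ± 0.21, adjusted p = 1.17e-08) and *Smad6* (41.2 ± 18.8 and 5.07 ± 3.10 CPM, 3.16 ± 0.34, adjusted p = 7.48e-08) had the smallest p. Without the WT7 time-course library the same number of response genes rose, *Bambi* being at 2.57 and *Smad6* at 3.64. Within WT cells 7 of the 10 rose from day 3 to day 5, among them *Id1* by 4.45 ± 0.16, where 7.49% of all genes rose. Against WT70 on day 5, no response gene passed in MUT, and 4 had an unadjusted p under 0.05 (edgeR). Only 1.87% of all genes passed there, so a count of none among 10 genes tells little.

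**Figure D5:**
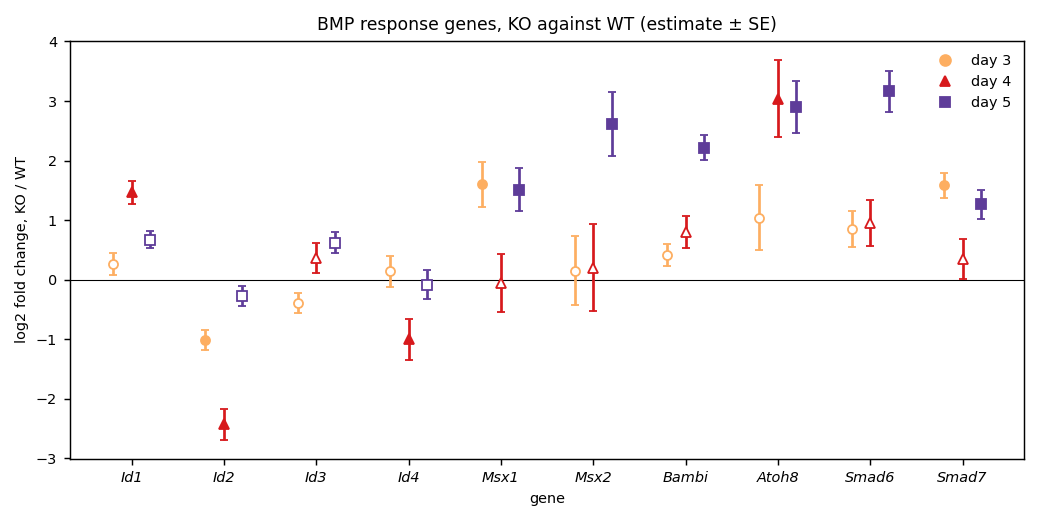
Log2 fold change of KO over WT (y axis, with its standard error) for 10 BMP response genes (x axis) on days 3, 4 and 5. Filled symbols passed the test and open ones did not. On day 4 *Id1* and *Id2* lie on opposite sides of 0, and on day 5 the 6 filled genes are all higher in KO.

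The genes whose course was most like that of each member were sought by Pearson's r of mean log2 CPM over the 16 groups of genotype and day. The groups share libraries' days and tables, so r is given as a description only. *Bmp5* was most like *Shh* (0.99), *Asb4* (0.99) and *Rdx* (0.98). *Bmp2* was most like *Foxc1* (0.97), *Gfra2* (0.96) and *Itga8* (0.96), *Bmp7* like *Ablim1* (0.98), *Thra* (0.97) and *Mogat2* (0.97) and *Nog* like *Gpc3* (0.97), *Sccpdh* (0.97) and *Cd82* (0.96). *Bmp4* was most like *Cdk19* (0.96), *Mxi1* (0.96) and *Rdm1* (0.93), and *Bmp6*, with the lowest values among the ligands, like *Shtn1* (0.89), *Zscan29* (0.87) and *Gbe1* (0.87). *Chrd* was most like *Erap1* (0.95), *Lhx1* (0.93) and *Grrp1* (0.92), *Fst* like *Wnt8a* (0.88), *Evx1os* (0.87) and *Rtl8c* (0.87) and *Grem1* like *Plekhf1* (0.90), *Tmem38b* (0.90) and *Asrgl1* (0.89). Among the members themselves the highest values were 0.92 for *Bmp7* with *Nog* and 0.92 for *Bmp2* with *Bmp5*, then 0.88 for *Bmp2* with *Nog*, and *Bmp4* was closest to *Grem1* (0.82), the 2 genes that were high at both ends of the course. *Fst* was closest to *Chrd* (0.77).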

How the data were processed

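Polyadenylated RNA of 36 libraries was sequenced by the authors from a stranded library kit. Per the labels and the study's methods, the authors used Trim Galore 0.6.4 for trimming, Salmon 0.14.1 with GENCODE mouse transcripts (mm10) for quantification and tximport for sums per gene. The deposited tables hold expected counts (estimated counts that need not be whole) and TPM for 54281 genes, of which 205 have no symbol. The authors analysed their counts in R 4.0.2 with DESeq2 1.30.0.

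Samples were grouped by genotype and day from their titles. Expected counts were rounded to whole numbers. In R 4.3.3, edgeR 4.0.16 was fitted to all 36 libraries with TMM scaling, filterByExpr (minimum count 10, minimum total 15), 16 group means and a term for the deposited table (19 residual degrees of freedom). Quasi-likelihood F tests used Benjamini-Hochberg adjustment over all 21601 genes tested, and a gene passed at an adjusted p under 0.05 and a log2 fold change beyond 1. CPM values are TMM-scaled. TPM is used to compare levels between genes and in the limma alternative. KO and WT share no line, but the same lines recur over days, so the day comparisons are paired by line. Differences between the lines of a genotype correlated between pairs of days at -0.09 to 0.07 in WT and -0.07 to 0.07 in KO (21 pairs of days each). No 2 libraries held identical values.

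Alternatives were DESeq2 1.42.0, limma 3.58.1 on log2(TPM + 1), other scaling, no filter, no table term, the line as a block, the compared libraries only, single tables, summed libraries, other controls for MUT, a higher fold threshold and leaving out each library except WT70. For the pathway lists on day 5, leaving out the WT7 time-course library was added after seeing the data. The steps were tested on simulated data. Promoter windows came from RefSeq (GRCm38.p6), matched by symbol for 5 of the 9 genes. Bounds against groups without counts use 3 counts over the group and cover counting error only. All members were named in every comparison, with up to 2 genes of smallest p from each pathway list and, for each member, the 3 genes of highest correlation among those reaching 5 CPM in a group. The members and lists were chosen with earlier results of these data known.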

Additional observations from a re-analysis of the deposited data

Results flagged for a closer look

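Effects that differed between groups by a test of the difference itself are given here as values. The KO effect minus the MUT effect was 1.52 for *Bmp7* on day 3 and 1.62 for *Nog* and 2.99 for *Grem1* on day 5 (log2 scale, edgeR), with the KO effect the higher each time. KO and WT cells followed different courses over the 6 days for *Bmp2* (adjusted p = 7.70e-04), *Bmp5* (adjusted p = 5.30e-04), *Bmp7* (adjusted p = 1.80e-05), *Chrd* (adjusted p = 0.00271), *Nog* (adjusted p = 7.49e-05), *Fst* (adjusted p = 4.50e-06) and *Grem1* (adjusted p = 8.48e-05), all by the edgeR F test. In the groups of 4 libraries, no library of a member stood far enough from the others to be listed.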

How the results depend on the processing

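Over 2511 recomputed values of the 9 genes, 60 calls were lost, 62 were gained and no called value changed sign, while 60 values that passed in neither setting did. Under a replicate block for the line, all 63 calls were as without it, 6 members passing in WT from day 3 to day 5. No line pairs KO with WT. RLE scaling changed no call.

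Numbers of members that passed changed by over 1.5 times as follows. DESeq2 gave 3 for the KO effect minus the MUT effect on day 3 (1 in the reported fit), 5 on day 5 (2) and 5 for MUT against WT70 on day 5 (2). Without a filter on low counts these numbers were 4, 6 and 5, with 2 for KO against WT on day 2 (0) and 1 for MUT against WT70 on day 3 (0). In that fit the prior degrees of freedom were infinite, so a gene's own spread was not used. With limma on log2(TPM + 1) the numbers were 0 for KO against WT on day 0 (1), 3 on day 3 (5), 1 for WT from day 0 to day 3 (3), 2 from day 3 to day 5 (6), 4 for MUT from day 3 to day 5 (8), 1 for MUT against WT70 on day 5 (2) and 4 for the effect difference on day 5 (2). With the compared libraries only they were 1 for KO against WT on day 2, 2 for the effect difference on day 3, and 1 and 5 for MUT against WT70 on days 3 and 5. Without the table term they were 1 for the effect difference and 0 for MUT against WT70 on day 5. With WT7 and WT34 as the control of MUT, 1 member passed on day 3 and 4 on day 5, and with WT70 added 1 and 5. Leaving out 1 library gave 0 to 1 for KO against WT on day 2, 1 to 2 and 1 to 5 for the effect difference on days 3 and 5, and 0 for MUT against WT70 on day 5 without either MUT library (2). The causes were not tested.

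The tests over all days were not run under DESeq2, and WT70 could not be left out, being 1 library per day. In the 36 libraries 1 count was worth 0.0369 to 0.102 CPM, which limits *Bmp5*, *Grem1* and *Nog* at their low points. Day 5 rests on few lines, and KO and WT on days 0, 1, 2 and 4 on 2 libraries each.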
